A study of Mus musculus with 2 samples.

Results

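The genes described here code for the Rab GTPases, the SNARE proteins (the Vamp, Stx and Snap families), the SNARE partners of the Stxbp and Unc13 families and the synaptotagmins (Syt). They were chosen by gene symbol alone: a gene probe belonged if its symbol began with Rab, Vamp, Stx, Stxbp, Snap or Syt followed directly by a digit, or with Unc13. This gave 76 genes on 78 probes, of 20702 gene names on 20868 probes. The prefix also took in Rab5if, a membrane protein named for an interaction with Rab5 that is not itself a GTPase, and Snap91, a clathrin adaptor of nerve endings, and both were kept because the rule takes symbols.

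Total RNA came from mouse mucosal mast cell cultures, taken at day 4 and at day 20 of differentiation. Both days shared 4 added factors, TGF-β1, SCF (stem cell factor), IL-9 and IL-3, so no arm went without them, and the labels name neither the mouse strain nor the cells put into culture. Each of 2 two-colour Agilent oligonucleotide arrays held both days: day 4 was in Cy3 and day 20 in Cy5 on array 1, and the dyes were swapped on array 2. Every labelled RNA was a pool of 3 samples, and the pools of the arrays differed in origin, so n = 2 for each value below, and the number of arrays limits the precision.

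Exocytosis of a granule runs in steps. A Rab GTPase in its GTP-bound form brings effectors to the granule membrane and tethers it to its target. An R-SNARE of the granule (a Vamp) then zips together with Q-SNAREs of the plasma membrane (a Stx and a Snap). This step is guided by Munc18 proteins, which are part of the Stxbp family, and primed by Munc13 proteins (Unc13). Synaptotagmins couple fusion to calcium. In mast cells this machinery releases histamine, proteases and other granule contents when the IgE receptor is crosslinked, and other Rabs and SNAREs serve the endosomes and the Golgi that supply the granules.

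Signals are given as log2 values after background correction, loess within each array and scaling of the average signal between arrays, and a ratio is log2 of day 20 over day 4, with the swapped array turned. The probes of genes were well above background in 80.0% to 96.2% of spots per channel. The culture's mast cell markers went with the label: 10 of 12 tested were higher at day 20 and 1 was lower, Hdc (the histamine-forming enzyme). Their summed linear signal went from 71294 to 317730 on array 1 and from 82589 to 310030 on array 2; these day 20 sums are lower bounds, since the probes of Cma1 and Tpsab1 on both arrays and of Mcpt1 on array 1 were saturated at day 20. Markers of other cells went the other way, with 8 of 10 neutrophil, 9 of 10 monocyte and macrophage, 6 of 7 erythroid and 3 of 5 basophil and eosinophil markers lower and none of these higher; of 5 markers of T, B and NK cells 1 was higher and 1 lower. The summed signal of the neutrophil list went from 17307 to 9228 on array 1 and from 17055 to 10765 on array 2. Most of its day 20 sum was Ctsg, which was not called (log2 signals of 13.01 and 13.22 at day 20), while S100a9 fell 33.4-fold. The sum of the monocyte list went from 6982 to 1598 and from 7878 to 1804. For erythroid markers it went from 3531 to 2150 and from 3303 to 1883, and for basophil and eosinophil markers from 24788 to 4644 and from 28611 to 4612. Most of this last day 4 sum was Mcpt8, with log2 signals of 14.53 and 14.76 at day 4, which fell 6.89-fold. Prg2 and Epx fell 1.33-fold and 1.36-fold, and Prg3 and Ccr3 were not called. For T, B and NK cell markers the sum went from 827 to 942 and from 987 to 1343. Whether a change in cell makeup has a part in the ratios below was not tested. In such bulk RNA fewer cells of a type and less RNA per cell cannot be told apart.

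Between day 4 and day 20, 7 of the 68 members that could be tested rose and 2 fell. The risers were 6 Rab GTPases (Rab19, Rab27b, Rab37, Rab3d, Rab38 and Rab5c) and the Q-SNARE Snap23, and those that fell were Rab5if and the R-SNARE Vamp5. A gene was called if its adjusted p was below 0.05 (limma, two-sided, Benjamini-Hochberg over all 18058 genes tested) and its ratio had the same sign on both arrays. Called members made up 13.2% of those tested, beside 17.1% of all genes tested, a share below that of the background. With an intensity trend and a robust prior in limma, both shares were 17.6%. By direction, 7 of the 68 members were called higher and 2 lower, beside 7.84% and 9.29% of all genes. Whether this split differs from the background was not tested. The median ratio of the members was 0.05, beside -0.01 for all genes tested. A total of 50 of 68 members (73.5%) had a mean ratio within 0.25 of 0, that is within 1.19-fold, beside 74.9% of all genes. Rab19 and Rab5if, 2 of the 68 members, passed 2-fold on both arrays, as did 340 of all 18058 genes tested.

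**Figure D1:**
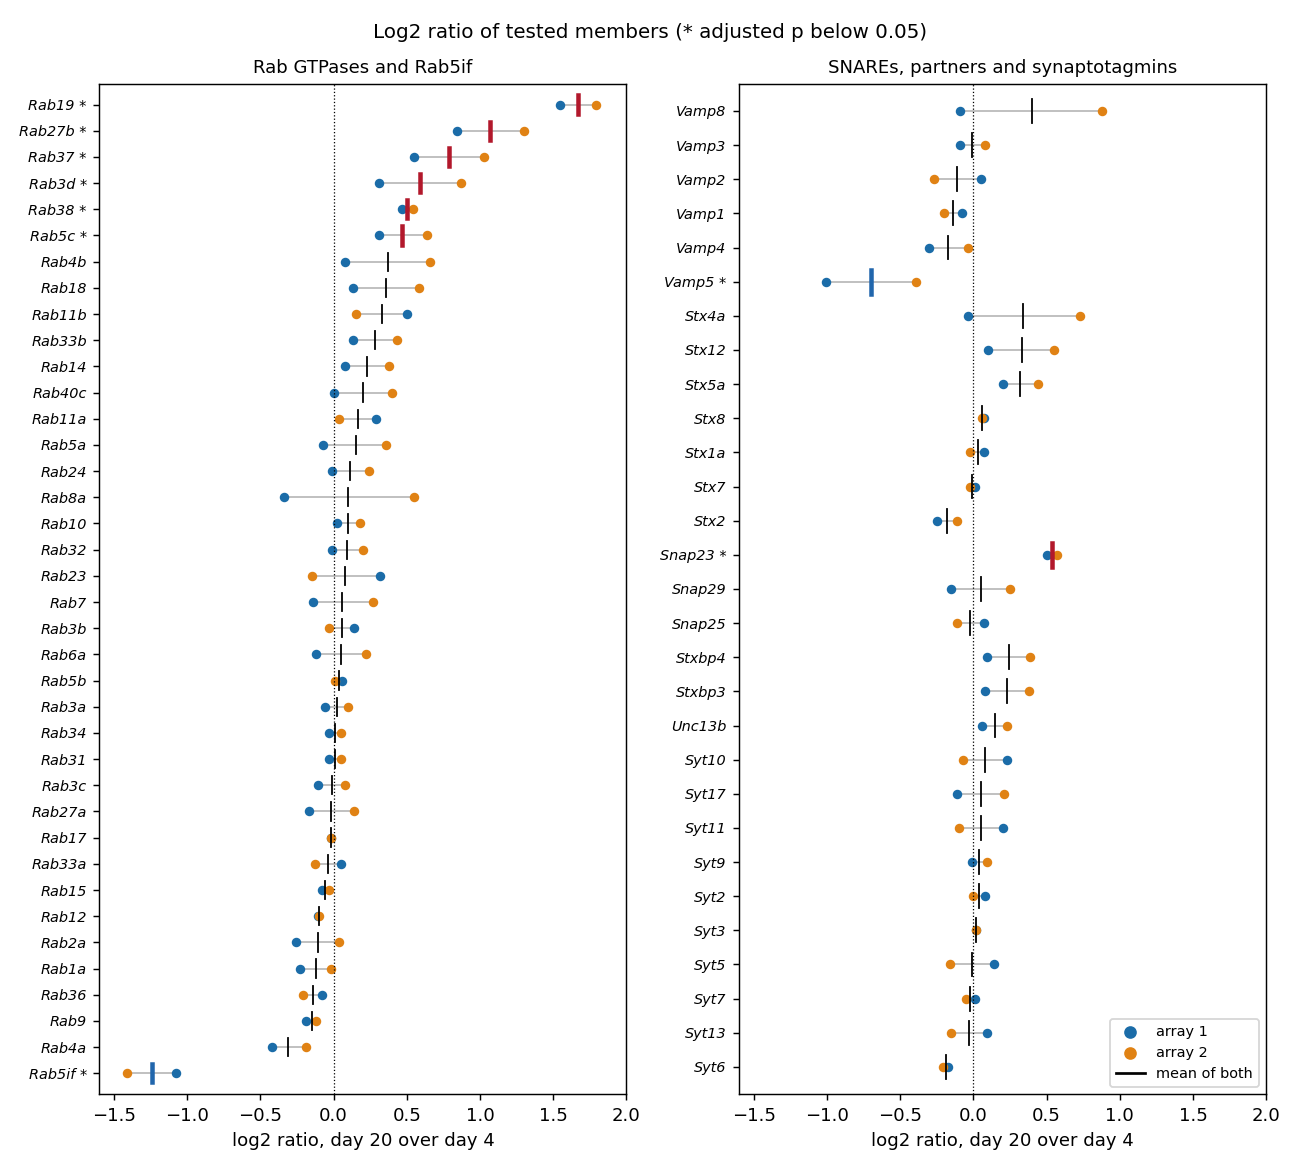
Log2 ratio of day 20 over day 4 (x axis) for all but 1 of the 68 tested members, with array 1 in blue, array 2 in orange and a bar at their mean. Asterisks mark the 9 called members; Rab19 has the highest mean, 1.67, and Rab5if the lowest, -1.24, while most members lie close to 0.

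Rab19, a Rab placed at the Golgi apparatus, gave log2 signals of 9.70 at day 4 and 11.25 at day 20 on array 1, and of 9.77 and 11.56 on array 2. Both day 20 channels lay above both day 4 channels. Its mean ratio was 1.67 ± 0.17 (SD, n = 2), a 3.18-fold rise with a limma adjusted p of 4.44e-07.

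Rab27b, which with its paralog Rab27a docks secretory granules at the plasma membrane and takes part in mouse mast cell degranulation, went from 10 to 10.84 on array 1 and from 9.68 to 10.97 on array 2. Its day 20 signals were higher than both day 4 signals. The mean ratio was 1.07 ± 0.32 (SD, n = 2), a 2.10-fold rise (limma adjusted p = 4.59e-05). Rab27a gave 6.45 and 6.28 on array 1 and 6.76 and 6.90 on array 2, so its days overlapped. The ratio of Rab27a averaged -0.02, with a 95% interval from -0.27 to 0.24 (limma adjusted p = 0.997), and its probe stayed within 2-fold of the 95th percentile of the negative control spots in all 4 channels, where a change is hard to see. The ratio of Rab27b exceeded that of Rab27a by 1.01 on array 1 and by 1.16 on array 2.

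Rab37, a Rab found on the secretory granules of mast cells, went from 8.14 to 8.69 on array 1 and from 8.07 to 9.09 on array 2, with no overlap of the days. It rose by 1.73-fold, with a mean ratio of 0.79 ± 0.34 (SD, n = 2; limma adjusted p = 0.00062). Rab3d, the Rab3 form of the granules of exocrine and mast cells, went from 7.16 to 7.47 and from 7.07 to 7.94. The days did not overlap, and the mean ratio was 0.59 ± 0.40 (SD, n = 2; limma adjusted p = 0.00729). Rab3d had a second probe, named by a RefSeq accession, whose ratios were 0.12 and 0.05, with a mean of 0.09 (limma adjusted p = 0.871), so the probes of this gene disagree and its rise rests on the brighter one.

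Rab38, which together with Rab32 sends cargo to lysosome-related organelles such as melanosomes, went from 11.02 to 11.48 on array 1 and from 10.51 to 11.05 on array 2. The lower day 20 value was just above the higher day 4 value. Both arrays gave close ratios, with a mean of 0.50 ± 0.05 (SD, n = 2; limma adjusted p = 0.00563). Rab32 had ratios of -0.01 and 0.20 and was not called (limma adjusted p = 0.855); the ratio of Rab38 exceeded it by 0.48 and 0.34.

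Rab5c, a Rab5 form that, like Rab5a and Rab5b, drives fusion of early endosomes, went from 9.64 to 9.95 and from 9.37 to 10.01, without overlap of the days. Its mean ratio was 0.47 ± 0.23 (SD, n = 2; limma adjusted p = 0.0131), next to the threshold. Rab5a averaged 0.15 and Rab5b 0.04, and neither passed (limma adjusted p = 0.672 and 0.988). The probe of Rab5b was above the negative control percentile in 2 of the 4 channels and within 2-fold of it in all of them. The ratio of Rab5c exceeded that of Rab5a by 0.38 on array 1 and 0.28 on array 2.

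Rab5if, described in the array file by a clone name, went the other way, from 11.50 to 10.42 on array 1 and from 11.85 to 10.44 on array 2. Both day 4 channels lay above both day 20 channels. It fell by 1.24 on the log2 scale (SD 0.24, n = 2), to a level 2.37-fold lower, with a limma adjusted p of 8.14e-06.

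**Figure D2:**
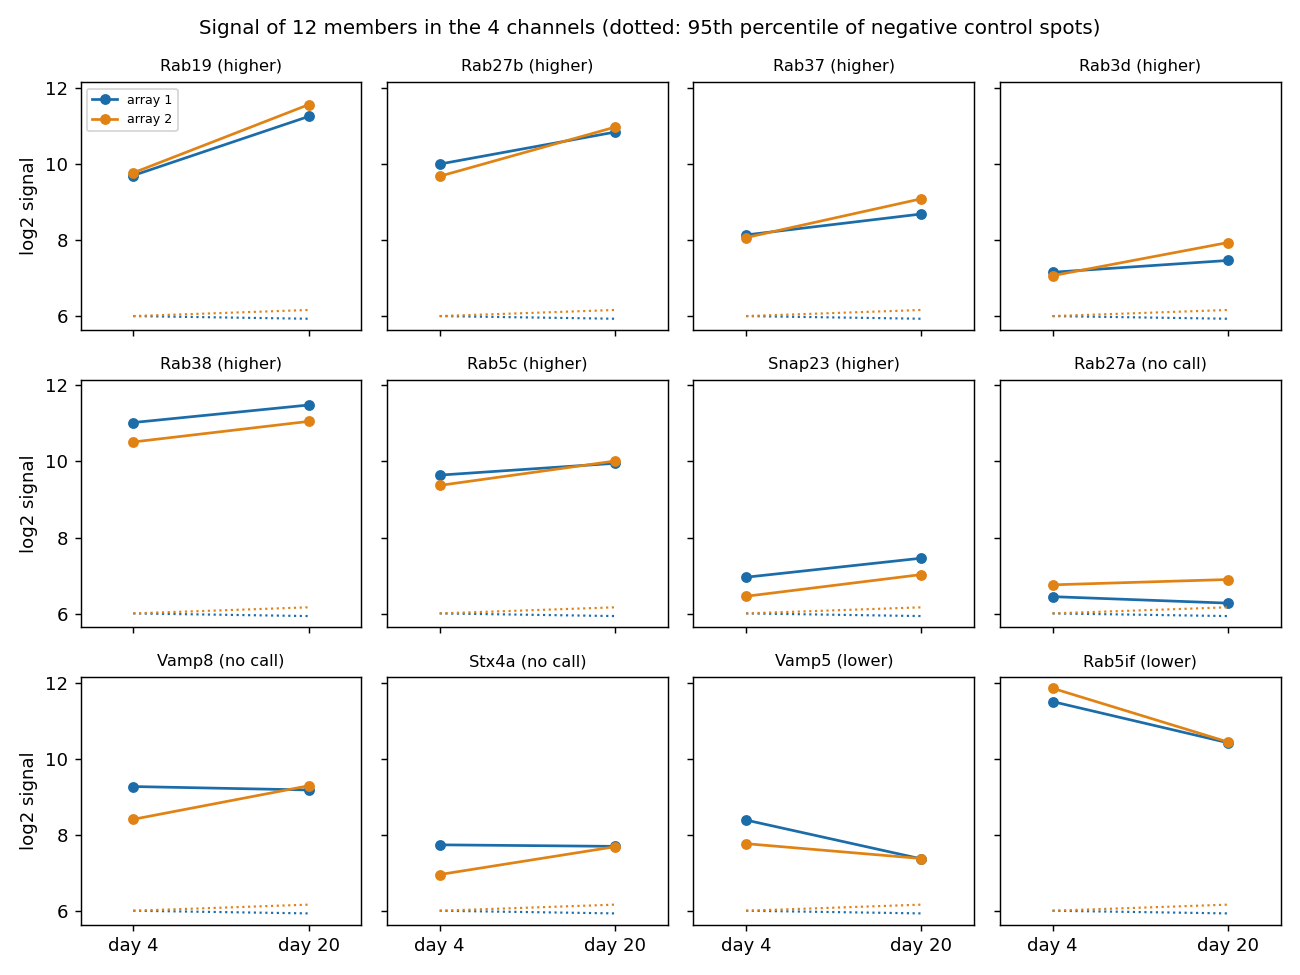
Log2 signal (y axis) at day 4 and day 20 (x axis) of 12 members, one panel each, with array 1 in blue and array 2 in orange; the dotted lines give the 95th percentile of negative control spots. The 9 called members move the same way on both arrays, Rab27a stays near the dotted lines, and Vamp8 and Stx4a rise on array 2 and not on array 1.

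Of the 37 Rabs tested, 31 were not called. The 6 called made up 16.2%, beside 17.1% of all genes tested, and the family's median ratio was 0.08. Just outside the threshold were Rab18, a Rab of the endoplasmic reticulum and lipid droplets, at 0.36 (limma adjusted p = 0.081) and Rab4b at 0.37 (limma adjusted p = 0.0909), while Rab5c and Rab3d were the nearest inside it. Rab4a, the other form of this recycling endosome Rab, had the lowest mean of the family, with ratios of -0.42 and -0.19 and a mean of -0.31 (limma adjusted p = 0.0989). The recycling Rab11b averaged 0.33 and Rab11a 0.17, neither called. Rab7, the Rab of late endosomes and lysosomes, had ratios of -0.14 and 0.27. Rab1a and Rab2a, which act between the endoplasmic reticulum and the Golgi, averaged -0.12 and -0.11, with 95% intervals from -0.37 to 0.12 and from -0.36 to 0.15. Rab3a and Rab12 averaged 0.02 and -0.10, but their probes stayed within 2-fold of the negative control percentile in all 4 channels. The probe of Rab36 differed far more between arrays than between days: its log2 signals were 7.59 and 7.51 on array 1 and 9.60 and 9.39 on array 2.

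Among the SNAREs, Snap23, the plasma membrane Q-SNARE that mast cells use for degranulation, was the single one to rise. It went from 6.96 to 7.46 on array 1 and from 6.46 to 7.03 on array 2, and the lower day 20 value was just above the higher day 4 value. Its mean ratio was 0.54 ± 0.05 (SD, n = 2), a 1.45-fold rise (limma adjusted p = 0.00362). The size of this rise depended on the processing: the ratio was 1.01 with no offset added after background correction and 1.16 with the scanner software's ratios, and under median centring the call was lost. Snap25, the neuronal form, had ratios of 0.07 and -0.11, and Snap29, a form of intracellular membranes, had -0.15 and 0.25; neither was called. The ratio of Snap23 exceeded that of Snap25 by 0.44 and 0.68 and that of Snap29 by 0.66 and 0.32, but the probe of Snap25 stayed within 2-fold of the negative control percentile in all 4 channels.

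Vamp5, an R-SNARE first described in muscle, went from 8.39 to 7.37 on array 1 and from 7.77 to 7.38 on array 2, with no overlap. It fell by 0.70 on the log2 scale (SD 0.44, n = 2), 1.63-fold, with a limma adjusted p of 0.00272. A second, dimmer Vamp5 probe gave 0.04 and -0.12, with a mean of -0.04 (limma adjusted p = 0.986), so the fall rests on the brighter probe. The brighter probe was named by a RefSeq accession, the dimmer one by an older symbol in its description.

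Vamp8, the R-SNARE of mast cell granules, gave 9.27 and 9.18 on array 1 but 8.41 and 9.29 on array 2. Its ratios of -0.09 and 0.88 disagree, and the mean of 0.40 ± 0.68 (SD, n = 2) did not pass, with a 95% interval from 0.02 to 0.77 and a limma adjusted p of 0.169. Vamp5 and Vamp8 are neighbours whose annotated starts lie 10.2 kb apart in RefSeq's GRCm38.p6. Vamp2 and Vamp3, R-SNAREs of secretory and recycling vesicles, averaged -0.11 and -0.01, and Vamp4, an R-SNARE of the trans-Golgi network, averaged -0.17. None of them was called, and the probe of Vamp3 stayed within 2-fold of the negative control percentile in all 4 channels. In the Vamp family 1 of 6 was called, in the lower direction. This was 16.7%, beside 17.1% of all genes tested, and the family's median was -0.13.

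No syntaxin was called among 7 tested, beside 17.1% of all genes tested, and the syntaxin means ran from -0.18 to 0.34. Stx4a, the plasma membrane partner of Snap23, gave 7.74 and 7.70 on array 1 and 6.96 and 7.69 on array 2. Only array 2 showed a difference. The symbol Stx4a is that of RefSeq. The mean ratio of Stx4a was 0.34 ± 0.54 (SD, n = 2, limma adjusted p = 0.184). Stx5a, a syntaxin of the Golgi, was the nearest to the threshold, at 0.32 (limma adjusted p = 0.0835). Stx7, of late endosomes, had ratios of 0.01 and -0.02.

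Stxbp3, a widely expressed Munc18 form, had ratios of 0.08 and 0.38, with a mean of 0.23, and did not pass (limma adjusted p = 0.285). Stxbp2, the Munc18 form used in mast cells and other blood cells, was outlier-marked on array 2 and so was not tested; it had a ratio of 0.37 on array 1. With marked spots kept, its log2 signals were 9.68 and 10.06 on array 1 and 9.67 and 9.83 on array 2, and the mean ratio of 0.27 had a 95% interval from 0.02 to 0.52 (limma adjusted p = 0.165). Unc13b, a Munc13 priming factor, averaged 0.15 (limma adjusted p = 0.602), and its probe stayed within 2-fold of the negative control percentile in all 4 channels.

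None of the 10 synaptotagmins tested was called, beside 17.1% of all genes tested, and the synaptotagmin means, from -0.19 to 0.08, were all close to 0. Syt2, a calcium sensor that mouse mast cells are known to express, gave 6.12 and 6.20 on array 1 and 6.29 at both days on array 2. Syt3, Syt9 and Syt11 averaged 0.02, 0.04 and 0.05. These probes were dim: 9 of the 10 stayed within 2-fold of the 95th percentile of the negative control spots in all 4 channels. Any change in them was hardly detectable at this signal, and the near-zero ratios do not show that their RNA was steady.

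**Figure D3:**
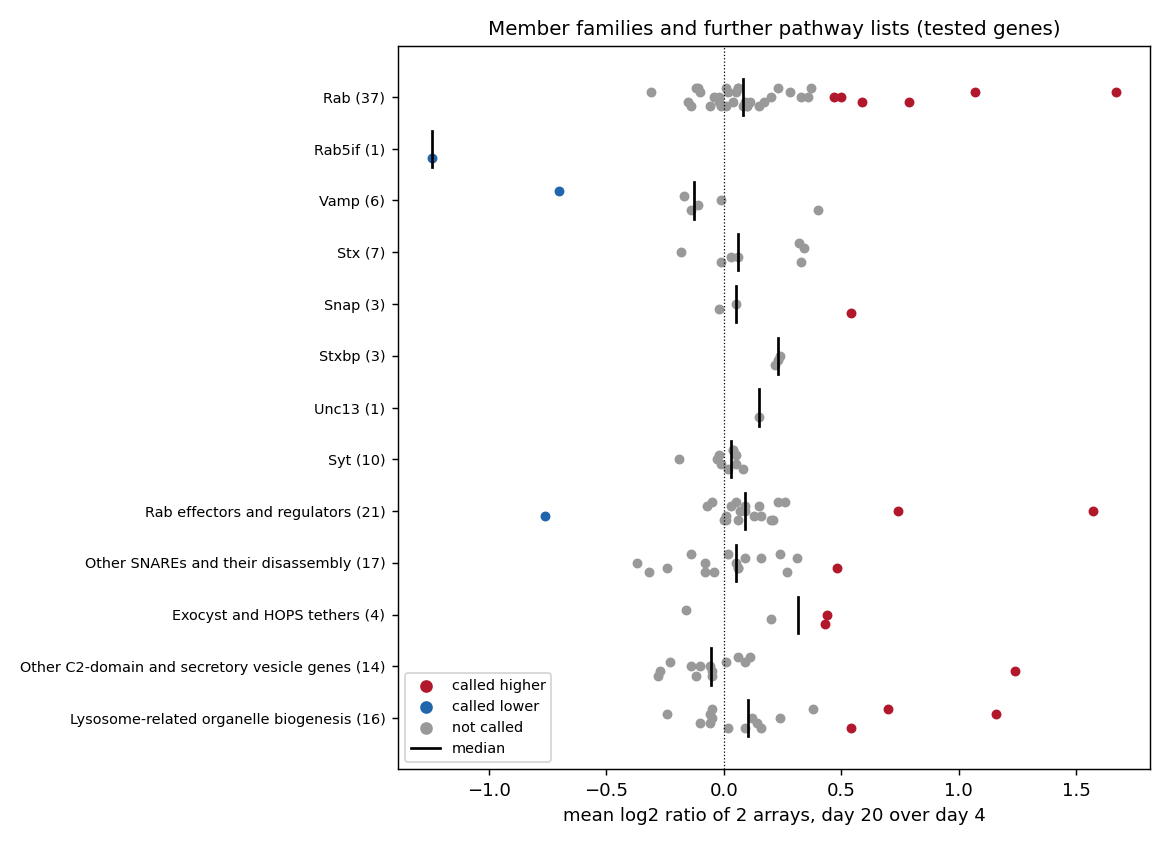
Mean log2 ratio of day 20 over day 4 (x axis) of each tested gene, by member family and by further list of the pathway (y axis, number tested in parentheses), with red and blue for genes called higher and lower and a black bar at the median. The Rab family, 37 of the 68 tested members, holds 6 of the 7 called higher. Of its tested genes 16.2% are called, beside 17.1% of all genes tested. No Stx, Stxbp, Syt or Unc13 gene is called, and the probes of 9 of the 10 Syt genes are dim.

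Of the 68 tested members 24 (35.3%) stayed within 2-fold of the negative control percentile in every channel, beside 39.6% of all genes tested. A further 7 members were not well above background in both channels of either day and were not tested, among them Rab25, Snap91, Stx6, Syt1, Syt4 and Syt8. The log2 signals of these named genes lay between 5.69 and 6.13 in every channel.

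The arrays gave unequal ratios for many members. The ratio of array 2 exceeded that of array 1 in 46 of 68 members (67.6%), beside 55.4% of all genes tested. The median ratio of the members was 0.01 on array 1 and 0.08 on array 2, beside 0 and -0.01 for all genes tested. The sign was the same on both arrays in 37 of 68 members, beside 10712 of 18058 genes. The pooled SD between arrays was 0.23 for the members and 0.19 for all genes. Vamp8, Stx4a and Rab8a, an exocytic Rab with ratios of -0.34 and 0.55, were the widest apart among the members. The arrays differed in dye orientation and in the origin of the pools at once, so these cannot be told apart.

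**Figure D4:**
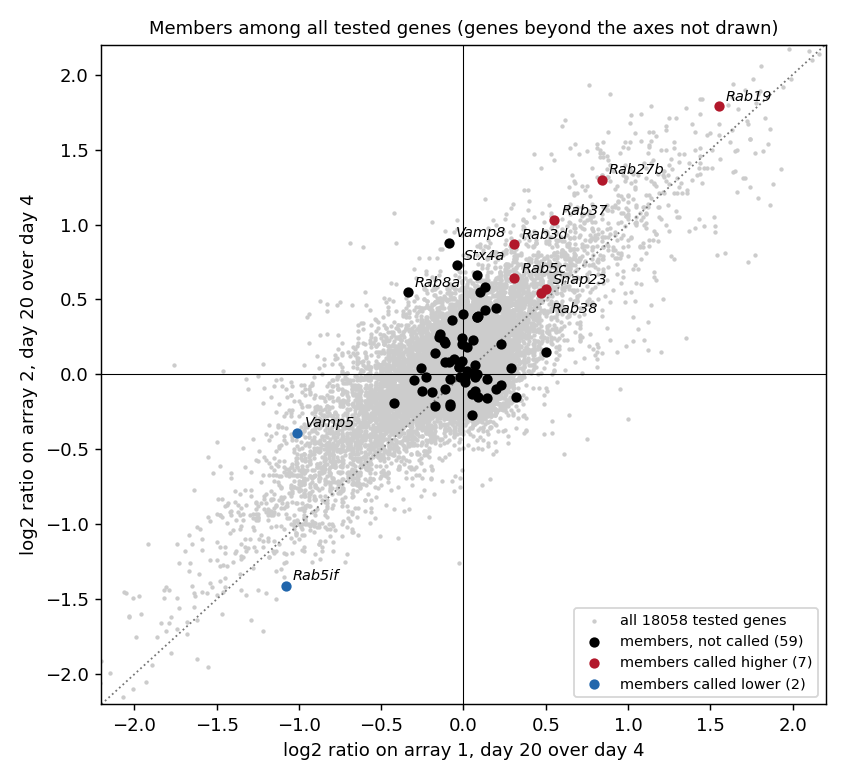
Log2 ratio of day 20 over day 4 on array 1 (x axis) and array 2 (y axis) for all 18058 tested genes (grey, a few beyond the axes not drawn) and the 68 members (black, red or blue). Called members lie in the upper right or lower left; Vamp8, Stx4a and Rab8a lie above 0 on array 2 alone.

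The bases before the annotated start of the called members are shown because these members moved on both arrays. RefSeq's GRCm38.p6 tables held windows for 59 of the 76 members and for 6 of the 9 called; Rab27b, Rab37 and Rab38 are named only. Each sequence gives the 250 bases before the start, 5′ to 3′ on the gene's own strand, with each CpG pair in capitals.
Rab19, chr6:39381103-39381352, plus strand: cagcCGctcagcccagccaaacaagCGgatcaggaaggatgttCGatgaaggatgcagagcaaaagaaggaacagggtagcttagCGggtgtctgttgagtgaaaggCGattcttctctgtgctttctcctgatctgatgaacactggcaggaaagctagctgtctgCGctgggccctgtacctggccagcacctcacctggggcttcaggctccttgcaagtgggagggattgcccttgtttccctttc
Rab3d, chr9:21918184-21918433, minus strand: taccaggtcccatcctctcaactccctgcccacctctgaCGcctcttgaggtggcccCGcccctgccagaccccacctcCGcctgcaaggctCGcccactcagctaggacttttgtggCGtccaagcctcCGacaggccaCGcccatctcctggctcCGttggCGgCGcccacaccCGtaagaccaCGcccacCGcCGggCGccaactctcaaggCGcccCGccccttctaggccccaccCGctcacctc
Rab5c, chr11:100738216-100738465, minus strand: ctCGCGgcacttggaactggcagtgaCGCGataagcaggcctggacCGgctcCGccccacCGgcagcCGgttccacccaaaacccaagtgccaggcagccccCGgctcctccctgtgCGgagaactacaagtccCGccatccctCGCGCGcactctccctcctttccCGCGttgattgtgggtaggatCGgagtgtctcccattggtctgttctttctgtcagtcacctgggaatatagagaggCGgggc
Snap23, chr2:120567421-120567670, plus strand: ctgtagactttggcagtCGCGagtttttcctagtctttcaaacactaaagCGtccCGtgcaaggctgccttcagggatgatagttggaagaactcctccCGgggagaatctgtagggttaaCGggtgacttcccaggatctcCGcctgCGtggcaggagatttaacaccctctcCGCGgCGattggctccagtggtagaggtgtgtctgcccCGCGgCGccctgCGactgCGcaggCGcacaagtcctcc
Rab5if, chr2:156862872-156863121, plus strand: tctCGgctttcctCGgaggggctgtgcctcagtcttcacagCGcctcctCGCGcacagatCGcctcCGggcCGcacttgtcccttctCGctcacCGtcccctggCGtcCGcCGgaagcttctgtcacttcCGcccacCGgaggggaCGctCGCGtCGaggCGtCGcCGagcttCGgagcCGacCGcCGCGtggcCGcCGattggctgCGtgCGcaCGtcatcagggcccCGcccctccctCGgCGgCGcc
Vamp5, chr6:72380469-72380718, minus strand: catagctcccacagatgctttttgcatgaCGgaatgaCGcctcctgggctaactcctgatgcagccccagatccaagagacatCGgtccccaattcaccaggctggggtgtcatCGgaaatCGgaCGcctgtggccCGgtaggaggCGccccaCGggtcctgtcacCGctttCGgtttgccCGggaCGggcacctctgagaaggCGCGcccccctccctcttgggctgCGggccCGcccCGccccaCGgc
The window of Rab19, the member with the highest ratio, held 6 CpG pairs, equal to the median of 6 over all 32841 windows, whereas that of Rab5if, the member with the lowest ratio, held 36, more than 97.4% of all windows. The other 4 held from 17 to 19, and the median of the 77 member windows was 15. A search of both strands for the E-box sequences CATGTG and CACGTG, the GATA sequences AGATAA and TGATAA and the AP-1 sequence TGANTCA found none of these letters in the 6 windows shown. Over all windows these motifs occurred in 12.3%, 6.02%, 9.99%, 7.94% and 6.75%, and over the member windows in 5.19%, 11.7%, 3.90%, 7.79% and 5.19%. CACGTG was thus found in 9 of 77 member windows, a description of these letters and not of binding.

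Further probes carried no gene symbol but were described as a Rab, syntaxin, synaptotagmin or Munc13. Of 21 such probes 20 were tested, with 1 called lower and none higher. Over all genes tested, 9.29% were called lower and 7.84% higher. The median ratio of these probes was 0.08. The one that fell was described as similar to RAB7, with log2 signals of 6.59 and 6.03 on array 1 and 6.64 and 5.92 on array 2; its mean ratio was -0.64 ± 0.11 (SD, n = 2; limma adjusted p = 0.00109), and its day 20 signal was close to that of negative controls. A probe described as a homolog of rat Munc13-4, the priming factor of blood cell granules, had ratios of 0.15 and 0.46 (limma adjusted p = 0.115). Those described as syntaxin 3A, a granule and plasma membrane syntaxin, and syntaxin 11 averaged 0.37 and 0.22, and neither passed (limma adjusted p = 0.0534 and 0.278).

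Other genes of the pathway and of related membrane traffic were read from lists. Not all of the listed genes act on the route of a granule to the plasma membrane. Over the 5 lists 10 of 72 tested genes were called, 13.9%, beside the 17.1% of all genes. With both directions together, these counts do not stand above the background. By direction, 9 of the 72 were higher and 1 was lower, beside 7.84% and 9.29% of all genes. Whether this split differs from the background was not tested. Of 21 tested Rab effectors and regulators 2 rose and 1 fell, with a median ratio of 0.09. Sytl2, a synaptotagmin-like effector of Rab27, went from 7.0 to 8.66 on array 1 and from 7.0 to 8.49 on array 2, a 2.98-fold rise (limma adjusted p = 6.15e-07). Rabep2, an effector of Rab5, rose by 0.74 ± 0.08 on the log2 scale (SD, n = 2; limma adjusted p = 0.000332). Rabggtb, the catalytic subunit that attaches the lipid anchor to Rabs, fell by 0.76 on the log2 scale with an SD of 0.59 (limma adjusted p = 0.00393).

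In the list of lysosome-related organelle biogenesis 3 of 16 rose and none fell, with a median of 0.11. These were Cd63, a tetraspanin of granule membranes, with a mean ratio of 1.16 ± 0.50, Lamp2, a lysosomal membrane protein, with 0.70 ± 0.45, and Bloc1s1, a subunit of the BLOC-1 complex, with 0.54 ± 0.18 (SD, n = 2 each; limma adjusted p = 7.66e-05, 0.00311 and 0.00481). Of 17 tested genes of other SNAREs and their disassembly, Snapin, a SNARE-binding protein that is also in BLOC-1, alone was called, at 0.48 ± 0.04 (SD, n = 2; limma adjusted p = 0.00762), and the median was 0.05. Of 4 tethers tested, Vipas39 and the exocyst subunit Exoc4 rose by 0.44 and 0.43 on the log2 scale (limma adjusted p = 0.0142 and 0.0206), with a list median of 0.31. Of 14 other C2-domain and secretory vesicle genes, the synaptogyrin Syngr3 alone was called, at 1.24 ± 0.70 (SD, n = 2; limma adjusted p = 0.000195), and the list median was -0.05.

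The calls of the members depended on the processing in a graded way. Rab19, Rab27b and Rab5if were called under all 11 settings tried, with mean ratios from 1.56 to 1.77, from 0.97 to 1.15 and from -1.38 to -1.23. Snap23 was called under 10, Rab37 and Vamp5 under 9, Rab38 and Rab5c under 8 and Rab3d under 7. When arrays were centred on their median without loess, the calls of Snap23, Rab37, Rab3d, Rab38, Rab5c and Vamp5 were lost, at ratios of 0.54, 0.79, 0.59, 0.36, 0.42 and -0.71. With the ratios of the scanner software, those of Rab37, Rab3d, Rab38, Rab5c and Vamp5 were lost although their ratios, 0.95, 0.94, 0.54, 0.52 and -0.93, were larger in size than the values above. With no offset added after background correction Rab38 and Rab5c were lost, at ratios of 0.56 and 0.54. Rab3d was also lost when its probes were averaged, at 0.34, or when its RefSeq-named probe was used, and the mean of the Vamp5 probes was -0.37. Of the pathway genes, Snapin and Bloc1s1 did not pass under median centring, the scanner's ratios or no offset, Exoc4, Vipas39, Lamp2 and Rabggtb did not pass under the first or the second, Cd63 did not under the first and Rabep2 did not under the second.

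**Figure D5:**
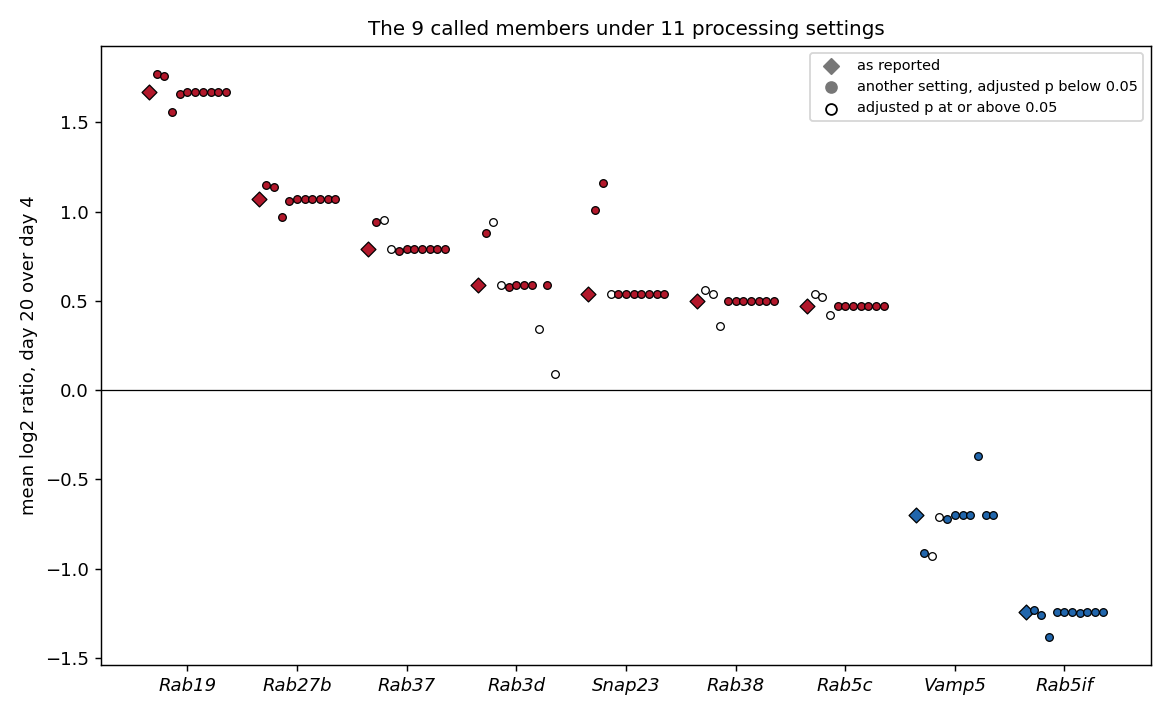
Mean log2 ratio of day 20 over day 4 (y axis) of the 9 called members (x axis) under 11 processing settings, with a diamond for the value reported, filled circles for settings with an adjusted p below 0.05 and open circles for the others. Rab19, Rab27b and Rab5if have no open circle, and Rab3d has 4.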

How the data were processed

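RNA of both days was hybridised to 2 Agilent arrays. Spots were measured by the authors with Agilent Feature Extraction, version 7.5 by the submitters' processing notes and 7.5.1 by the header of array 2. Their scanner files were deposited with mean signals and local background medians as raw intensity values and, from the same software, processed intensity values and log10 ratios of Cy5 over Cy3. The matrix that was deposited for the series carries the same log10 values, not turned for the dye swap (22393 of 22393 on both arrays, tolerance 1e-06). A spreadsheet had turned 313 Cy3 and 324 Cy5 background medians of array 1 into month names, which were read back as numbers.

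Ratios were recomputed in limma 3.58.1, run in R 4.3.3 with the package data.table (1.17.8): normexp background correction with an offset of 50, then loess within each array. Control spots and outlier-marked spots had no weight in loess, and marked spots were dropped. Spots of a probe were averaged, the brightest probe stood for a gene, and channel levels were scaled by Aquantile. Member probes were named by RefSeq accession (66), by the symbol in their description (10) or by an older symbol there (2); RefSeq symbols were those of GRCm38.p6. Genes well above background in both channels of a day were tested (18058) with lmFit and eBayes against 0, on 1 residual and 12.1 prior degrees of freedom, so the prior (SD 0.163) carries most of the variance estimate. A dye term would leave 0 residual degrees of freedom. P-values were two-sided and adjusted by Benjamini-Hochberg over all genes.

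The members, the pathway and marker lists and the tests were chosen with earlier results of these data known. Named with full values were all called members, members with a known part in granule exocytosis, and up to 4 called genes of each pathway list. Rab4a, Rab4b, Rab18, Rab11b, Rab1a, Rab2a, Rab36, Rab8a, Stx5a and the probes without a symbol were picked after their values were seen. The values of 2 members are not reported here, though they count in the totals. Alternatives changed the background offset, the normalization, the filter on dim probes, the treatment of marked spots, the choice of probe and the prior. The choice of a RefSeq-named probe was added after seeing the data.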

Additional observations from a re-analysis of the deposited data

How the results depend on the processing

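Of 10 alternatives, 2 changed the counts over all genes and over the members by more than 1.5 times. With the scanner software's ratios, 612 genes were called higher and 627 lower, in place of 1415 and 1677, and 3 members were called higher (2 of them Rabs) and 1 lower, with 0 Vamp genes. Median centring gave 562 and 788 genes, 2 members higher, both Rabs, and 1 lower, with 0 Snap and 0 Vamp genes. Within families, the offset of 0 added 1 Stxbp call (Stxbp4), and the intensity trend with a robust prior added 1 Stx (Stx5a) and 1 Stxbp call (Stxbp4). The cause of these differences was not tested.

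Medians shifted as well, but not all beyond the SD between the medians of the 2 arrays. With the scanner's ratios and with the offset of 0, the shifts of Rab, Snap and Stxbp were smaller than that SD. So was the shift of Unc13b with the offset of 0. The scanner's ratios gave 0.14 for the members, 0.18 for Rab, -0.19 for Vamp, 0.08 for Stx, 0.14 for Snap, 0.41 for Stxbp, 0.12 for Syt and 0.30 for Unc13b. The offset of 0 gave 0.13 for Rab, -0.20 for Vamp, 0.10 for Stx, 0.11 for Snap, 0.35 for Stxbp and 0.26 for Unc13b, and Stx was 0.03 under median centring and 0.03 with no filter on dim probes. From single arrays, the medians ranged from -0.01 to 0.15 for Rab, from 0.09 to 0.38 for Stxbp, from 0.06 to 0.23 for Unc13b, from 0.07 to 0.25 for Snap, from -0.06 to 0.05 for Syt and from -0.12 to -0.09 for Vamp. No called value changed its direction under any alternative. Without one array no residual degrees of freedom remain, so counts of calls could not be given. The RefSeq-named probe moved the call of Rab3d alone among the members. The comparison is paired as it stands, since each array holds both days. The limits are 2 arrays, pools whose origin changes together with the dyes, a median 95% interval of 0.25 log2 on each side of a member's ratio, and dim probes for the synaptotagmins.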
